A study of Mus musculus with 10 samples.

Results

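Ribosome biogenesis and RNA polymerase I were described through 40 genes, taken by symbol from the 24544 genes of the count table. All 40 were in the table, and all 40 were among the 12203 genes abundant enough to be tested. They comprise 6 genes of RNA polymerase I and its initiation factors, 8 of the small nucleolar ribonucleoproteins and their chaperone, 3 nucleolar histone chaperones and scaffold proteins, 8 of the small-subunit processome, 5 of late small-subunit maturation and 10 of large-subunit assembly.

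The libraries came from long-term hematopoietic stem cells of mouse bone marrow, sorted from a Hoxb5-mCherry strain in which a fluorescent reporter marks cells that transcribe Hoxb5. All cells were cKIT+, SCA1+, CD150+ and Hoxb5+ and lacked CD34, FLK2, CD48 and lineage markers. They were then divided by surface neogenin-1, a receptor encoded by Neo1, into NEO1+ and NEO1- fractions, with 5 libraries of each. Mice were 2 to 3 months old and received no treatment named in the labels, and 250 to 500 cells from 2 pooled mice went into a library. Both groups carry the reporter allele, so no library without it was compared. The question put by the series is how the NEO1+ and NEO1- fractions of Hoxb5+ stem cells differ.

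A ribosome starts as a long precursor RNA that RNA polymerase I copies from the repeated ribosomal DNA in the nucleolus. Small nucleolar ribonucleoproteins modify this precursor at chosen bases, the processome folds and cuts it, and separate sets of assembly factors carry the small and the large subunit out to the cytoplasm. Hematopoietic stem cells are known for a low rate of protein synthesis, and inherited defects of several of these factors cause bone marrow failure. The transcription factors MYC and MYCN bind the E-box CACGTG and are known regulators of many genes of this pathway.

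Promoter sequence bears on this pathway through that E-box. Promoters were taken from RefSeq (GRCm38.p6) as the window from 250 bases before to 50 bases after each gene start, and 35 of the 40 genes were matched. CACGTG reads the same on both strands, so a match on 1 strand is a match on both. It occurred in 8 of the 35 matched promoters (22.9%), namely those of Nop2, Ltv1, Utp20, Pes1, Tsr1, Utp18, Rrn3 and Wdr43. The share was 19.4% among 103 matched promoters of other ribosome biogenesis genes, 12.1% among 9579 matched promoters of all tested genes and 8.1% over the 27025 genes of the promoter table. These shares are descriptions, and a match to the letters is not a measured binding site. Below, the first sequence belongs to the gene of smallest p among the 40, which had no CACGTG in its window, and the others are the promoters in which the E-box lies before the start. Rrn3 held it at positions -215 and -48 from the gene start, Nop2 at -60 and Utp18 at -20. The E-box is in capitals, sequences run 5′ to 3′ along the strand of the gene, and only bases before the start and outside annotated exons are printed.
Wdr12, chr1:60098646-60098750, minus strand: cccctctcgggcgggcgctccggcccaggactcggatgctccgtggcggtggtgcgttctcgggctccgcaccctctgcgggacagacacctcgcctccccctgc
Rrn3, chr16:13780449-13780698, plus strand: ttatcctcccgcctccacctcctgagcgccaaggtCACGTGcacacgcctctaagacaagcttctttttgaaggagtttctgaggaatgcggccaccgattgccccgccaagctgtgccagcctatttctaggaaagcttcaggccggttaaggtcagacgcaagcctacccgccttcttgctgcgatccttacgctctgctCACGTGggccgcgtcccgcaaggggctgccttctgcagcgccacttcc
Utp18, chr11:93885767-93885851, minus strand: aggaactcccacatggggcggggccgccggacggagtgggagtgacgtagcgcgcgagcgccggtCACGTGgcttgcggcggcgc
Nop2, chr6:125131633-125131882, plus strand: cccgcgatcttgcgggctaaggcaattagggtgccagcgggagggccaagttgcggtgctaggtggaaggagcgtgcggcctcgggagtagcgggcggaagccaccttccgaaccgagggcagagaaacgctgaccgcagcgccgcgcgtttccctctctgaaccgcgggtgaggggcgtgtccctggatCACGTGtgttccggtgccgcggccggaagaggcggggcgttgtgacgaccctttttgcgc

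Levels are given as CPM (counts per M counts of a library), the counts of a gene over the scaled library size, so that values compare between libraries. Differences are log2 fold changes of NEO1+ over NEO1- with their standard error (SE) and a p from the quasi-likelihood test of edgeR, adjusted by Benjamini-Hochberg over all 12203 genes. Totals ran from 21.2 to 38.9 M counts a library, and a count of 0 allows a level of up to 3 counts, which is 0.077 to 0.142 CPM. Of the 40 genes, 37 had more than 200 counts in every library, and the smallest counts in a library were 17 for Npm3, 79 for Heatr1 and 142 for Rrp12. The reads carry no molecular identifiers, so intervals and limits of this kind cover counting error only. Neo1 itself, the gene of the sorting marker, read 64.8, 48.6, 59.6, 12.5 and 52.1 CPM in NEO1+ libraries 1 to 5 and 18.9, 11.5, 12.2, 4.56 and 6.15 CPM in NEO1- libraries 1 to 5. NEO1+ library 4 lay inside the range of the NEO1- libraries, so the main results that rest on it are also given without it. The 11 stem cell markers summed to 2318.3 to 2665.5 CPM across NEO1+ and 2330.9 to 2733.0 CPM across NEO1- libraries, though Hoxb5 itself was low, at 2.45 to 4.91 and 0 to 2.43 CPM. The 13 granulocyte and monocyte markers summed to 526.1 to 5172.4 and 428.5 to 3118.5 CPM, and the 12 erythroid markers to 1486.2 to 2231.6 and 1412.0 to 1729.0 CPM, of which Car2 made up most while Hba-a2, Hbb-bs and Hbb-bt were at 0 in all 10 libraries. The 10 megakaryocyte markers summed to 919.5 to 1124.9 and 848.9 to 1125.2 CPM, with Gp6 at 0 in every library. The 11 lymphoid markers in the table summed to 34.1 to 50.6 and 25.1 to 60.9 CPM, with Pax5, Cd3e, Rag1 and Dntt at 0 throughout. The part of such cells in the results was not tested.

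The ribosome biogenesis genes summed to similar levels in the NEO1+ and NEO1- cells. Together they read 3825.4, 3995.4, 3787.9, 3962.3 and 3696.9 CPM in NEO1+ libraries 1 to 5 and 4422.7, 3947.3, 3692.6, 3778.1 and 3848.6 CPM in NEO1- libraries 1 to 5. Apart from NEO1- library 1, which was the highest, the groups covered the same range. The means were 3853.6 ± 124.0 and 3937.9 ± 286.7 CPM (SD, n = 5 each). Ncl and Npm1 weigh most in these sums, with means of 700.8 and 691.9 CPM across NEO1+ and 676.1 and 706.1 CPM across NEO1- libraries. In bulk libraries, fewer cells with a transcript and less of it per cell cannot be told apart.

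None of the 40 passed an adjusted p of 0.05 in edgeR, where the share of all tested genes called was 0.00%. At an unadjusted p under 0.05, 1 gene was higher in NEO1+ (Wdr12) and 2 were lower (Rrp9 and Fbl). Over all tested genes these shares were 3.11% and 3.49%. The log2 fold change was above 0 for 17 genes and below 0 for 23, against 51.0% above 0 over all tested genes. The median was -0.07 over the 40 and 0.01 over all tested genes, with a range from -1.30 (Npm3) to 0.74 (Wdr12). Of the 40, 27 lay within 0.25 of no change on the log2 scale and 4 lay more than 0.5 away. Over all tested genes, 46.5% lay within 0.25. The 95% interval of the fold change included 0 for 37 genes and stayed within a doubling or halving for 31. Without NEO1- library 1 the median was 0.02 with 22 genes above 0, so the sign of the median rests on that library. Without NEO1+ library 4 it was -0.14 with 14 above 0. Leaving out a library also moved the median across 0 for the polymerase genes (-0.12 to 0.08), late small-subunit maturation (-0.05 to 0.17) and large-subunit assembly (-0.11 to 0.15). The same held for the small nucleolar ribonucleoproteins (-0.20 to 0.01) and the nucleolar chaperones (-0.06 to 0.04), while the processome stayed below 0.

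**Figure D1:**
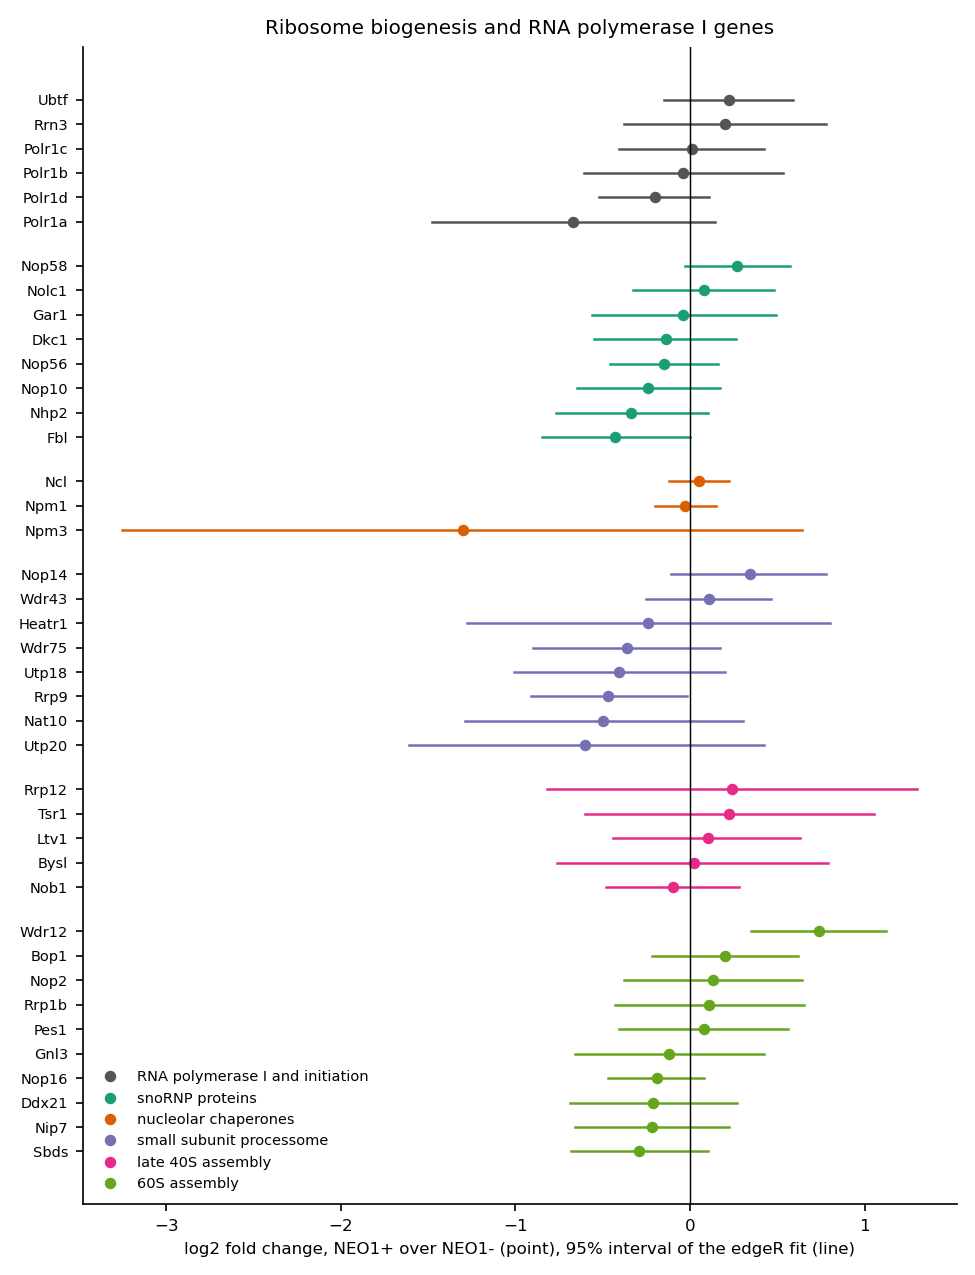
Log2 fold change of NEO1+ over NEO1- (horizontal axis) for each of the 40 genes, grouped and coloured by role, with a point for the estimate and a line for the 95% interval of the edgeR fit from 5 libraries a group. Intervals of 37 genes include 0, and Wdr12, at 0.74, lies farthest to the right.

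Transcription of ribosomal DNA needs the polymerase subunits and the factors that bring the enzyme to the promoter. The 6 genes of this role summed to 389.0 ± 44.8 CPM across NEO1+ and 390.2 ± 31.6 CPM across NEO1- libraries (SD, n = 5 each), with 3 above and 3 below 0 and a median log2 fold change of -0.02. Polr1a, the largest catalytic subunit, read 16.8, 29.9, 49.5, 19.6 and 27.7 CPM in NEO1+ libraries 1 to 5 and 76.2, 19.2, 55.9, 31.6 and 46.0 CPM in NEO1- libraries 1 to 5. NEO1- libraries 1 and 3 were the highest of the 10, and NEO1- library 2 lay among the lowest NEO1+ values, so the groups overlapped. Its log2 fold change was -0.67 with an SE of 0.38 (edgeR p 0.0965, adjusted 0.824), and it was -0.41 without NEO1- library 1.

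Polr1b, the other large catalytic subunit, read 34.9, 54.9, 58.7, 54.4 and 46.6 CPM in NEO1+ libraries 1 to 5 and 67.2, 45.0, 77.2, 34.3 and 32.6 CPM in NEO1- libraries 1 to 5. Its NEO1- libraries lay on both sides of the NEO1+ range, and the log2 fold change was -0.04 with an SE of 0.26. Ubtf, which binds along the ribosomal DNA promoter and opens its chromatin, had 100.4, 148.2, 136.5, 120.2 and 141.9 CPM in NEO1+ libraries 1 to 5 and 83.8, 149.8, 108.0, 90.9 and 124.4 CPM in NEO1- libraries 1 to 5. NEO1- libraries 1 and 4 were below every NEO1+ library and the others were spread over the NEO1+ range (log2 fold change 0.22, SE 0.17, edgeR adjusted p 0.924). Rrn3, the factor that joins the polymerase to the promoter complex and whose own promoter held the E-box in 2 places, had 67.6, 83.4, 59.4, 84.7 and 39.6 CPM in NEO1+ and 44.8, 77.2, 34.2, 54.4 and 81.4 CPM in NEO1- libraries 1 to 5. High and low libraries occurred in both groups, and the log2 fold change was 0.20 with an SE of 0.27. Polr1c and Polr1d, which RNA polymerase III shares, had log2 fold changes of 0.01 and -0.20 (SE 0.19 and 0.15).

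Small nucleolar ribonucleoproteins carry guide RNAs that direct ribose methylation (box C/D) or pseudouridylation (box H/ACA) of the precursor. Of the 8 genes, 2 were above and 6 below 0, with a median log2 fold change of -0.15. Their sum was 883.5 ± 53.7 CPM across NEO1+ and 936.5 ± 187.2 CPM across NEO1- libraries (SD, n = 5 each). Without NEO1- library 1, which held the highest sum at 1268.6 CPM, the median was 0.01 and 4 of the 8 were above 0.

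Fbl, the methyltransferase of the box C/D particles, read 53.5, 47.9, 41.8, 49.5 and 48.1 CPM in NEO1+ libraries 1 to 5 and 92.1, 60.1, 69.1, 56.1 and 46.3 CPM in NEO1- libraries 1 to 5. Of the NEO1- libraries, 4 lay above every NEO1+ library and library 5 lay inside their range. The means were 48.2 ± 4.23 and 64.8 ± 17.3 CPM, and the log2 fold change of -0.43 (SE 0.20, edgeR p 0.0480) had an adjusted p of 0.747. Without NEO1- library 1 it was -0.27. Nop58, a core protein of the same particles, had 197.1, 197.7, 175.1, 189.5 and 166.4 CPM in NEO1+ libraries 1 to 5 and 174.5, 119.7, 134.3, 197.2 and 142.8 CPM in NEO1- libraries 1 to 5. NEO1- libraries 1 and 4 reached the NEO1+ range and the other three lay below it, with a log2 fold change of 0.27 (SE 0.14, edgeR p 0.0755, adjusted 0.807). Nop56, the partner of Nop58, had a log2 fold change of -0.15 (SE 0.14), so 3 core proteins of 1 particle had point estimates of both signs. Differences between genes were not tested.

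Dkc1, the pseudouridine synthase mutated in dyskeratosis congenita, read 138.9, 114.3, 150.1, 146.0 and 105.0 CPM in NEO1+ libraries 1 to 5 and 209.1, 112.7, 108.8, 124.5 and 167.9 CPM in NEO1- libraries 1 to 5. The NEO1- range enclosed nearly all NEO1+ values, and the log2 fold change was -0.14 with an SE of 0.19. Nhp2, which belongs to the same box H/ACA particles and to telomerase, had 60.1, 68.5, 62.1, 66 and 64.2 CPM in NEO1+ libraries 1 to 5 and 113.9, 92.9, 82.8, 64.3 and 51.0 CPM in NEO1- libraries 1 to 5. The NEO1+ values were close together, while NEO1- libraries 1 to 3 lay above them and NEO1- library 5 below (log2 fold change -0.34, SE 0.20, edgeR adjusted p 0.856). Without NEO1- library 1 it was -0.18. Nop10 and Gar1, the remaining proteins of that particle, had log2 fold changes of -0.24 (SE 0.19) and -0.04 (SE 0.24), and Nop10 was at -0.08 without NEO1- library 1. Nolc1, a chaperone of the particles, was at 0.08 (SE 0.19).

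Nucleolin (Ncl) and nucleophosmin (Npm1) are abundant nucleolar proteins that bind ribosomal RNA and its assembling particles. Ncl read 718.7, 764.7, 609.8, 764.2 and 646.5 CPM in NEO1+ libraries 1 to 5 and 651.2, 692.1, 658.8, 656.5 and 721.9 CPM in NEO1- libraries 1 to 5. The NEO1- values lay inside the NEO1+ range. Its log2 fold change of 0.05 had a 95% interval from -0.12 to 0.22. Npm1 had 728.2, 696.5, 663.8, 677.5 and 693.3 CPM in NEO1+ libraries 1 to 5 and 688.5, 845.1, 691.2, 654.5 and 651.0 CPM in NEO1- libraries 1 to 5. NEO1- library 2 was the highest of the 10, and NEO1- libraries 4 and 5 the lowest. The log2 fold change was -0.03 with an interval from -0.20 to 0.15, and it was 0.04 without NEO1- library 2. These intervals are the narrowest here and leave room for only small differences in either direction. Npm3, a relative of Npm1, was the least precise of the 40, with 0.816 to 5.36 CPM across NEO1+ and 2.58 to 11.3 CPM across NEO1- libraries and a log2 fold change of -1.30 (SE 0.90).

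**Figure D2:**
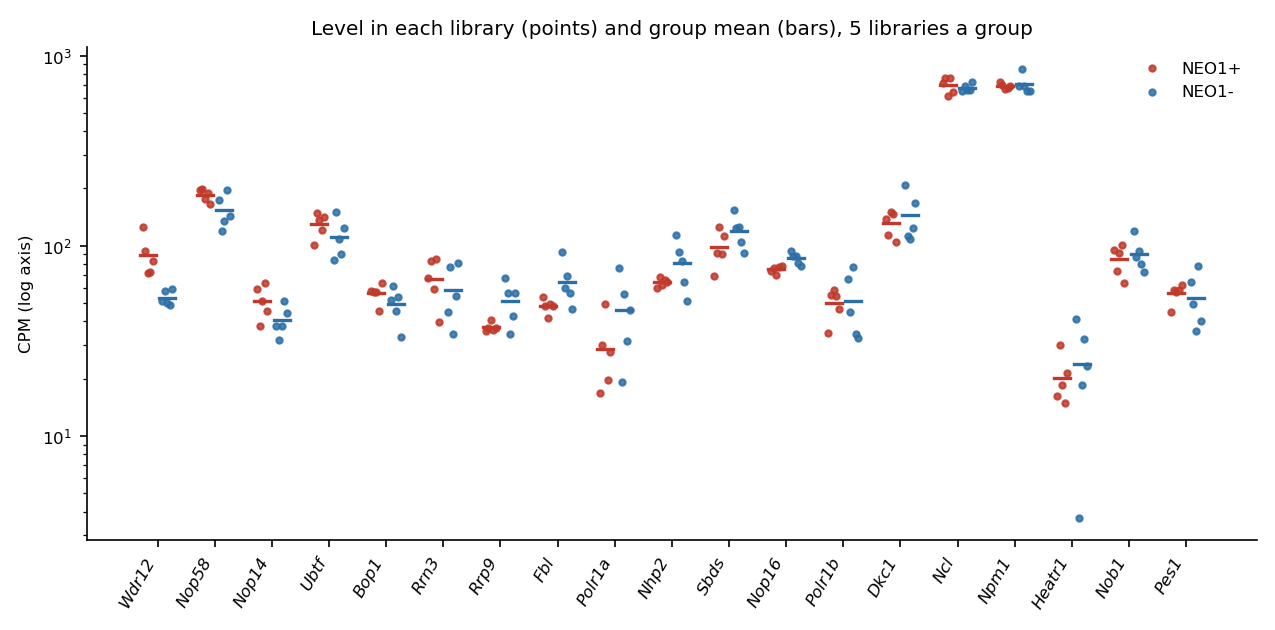
CPM (log axis) in each library, as points, and group means, as bars, for the 19 genes given by library, with NEO1+ in red and NEO1- in blue. Wdr12 alone shows no overlap, from 71.6 to 124.8 CPM in NEO1+ and from 49.0 to 58.9 CPM in NEO1- libraries.

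The processome is the large particle that forms on the nascent precursor and prepares the RNA of the small subunit. Of its 8 genes, 2 were above and 6 below 0, with a median log2 fold change of -0.39 that stayed between -0.52 and -0.22 when any library was left out. The sum was 336.4 ± 17 CPM across NEO1+ and 381.9 ± 56.9 CPM across NEO1- libraries (SD, n = 5 each). By library it was 332.8, 358.6, 342.0, 311.5 and 337.1 CPM in NEO1+ and 394.0, 296.0, 382.0, 382.0 and 455.6 CPM in NEO1- libraries 1 to 5. NEO1- library 2 was the lowest of the 10 and the remaining NEO1- libraries were above every NEO1+ library, so the groups overlapped through that library.

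Rrp9, a protein of the U3 particle that guides the early cuts, read 35.7, 37.0, 40.6, 35.9 and 36.7 CPM in NEO1+ libraries 1 to 5 and 67.5, 56.4, 34.4, 42.6 and 56.3 CPM in NEO1- libraries 1 to 5. NEO1- library 3 was the lowest of all and the other four NEO1- libraries were above every NEO1+ library. The means were 37.2 ± 2.00 and 51.5 ± 13.0 CPM, and the log2 fold change of -0.47 (SE 0.21, edgeR p 0.0406) had an adjusted p of 0.721. Nop14, a scaffold of the particle, had 58.9, 37.7, 50.9, 63.8 and 45.5 CPM in NEO1+ libraries 1 to 5 and 37.6, 31.9, 38.0, 51.2 and 44.4 CPM in NEO1- libraries 1 to 5. Its groups overlapped between 37.7 and 51.2 CPM, with a log2 fold change of 0.34 (edgeR adjusted p 0.864, SE 0.21). Heatr1, a processome protein that also acts in transcription of ribosomal DNA, had 16.3, 29.9, 18.5, 14.8 and 21.4 CPM in NEO1+ and 41.4, 3.70, 18.4, 32.3 and 23.4 CPM in NEO1- libraries 1 to 5. NEO1- libraries held both the highest and the lowest of its values (log2 fold change -0.24, SE 0.48).

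The other genes of the processome overlapped between the groups as well. Wdr43 was above 0, at a log2 fold change of 0.11 (SE 0.17). Wdr75, Utp18, Utp20 and the RNA acetyltransferase Nat10 lay below, from -0.36 for Wdr75 to -0.60 for Utp20, with SE from 0.25 to 0.47 and edgeR adjusted p from 0.898 to 0.923. Single libraries moved these values: Nat10 was at -0.06 instead of -0.50 without NEO1- library 3, and without NEO1- library 5 Utp20 was at -0.20 and Wdr75 at -0.19. Utp18, whose promoter holds the E-box printed above, was at -0.41 (SE 0.28), and between -0.63 and -0.24 when a library was left out.

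Late maturation of the small subunit ends with the cut that frees the mature RNA, made by the endonuclease Nob1. Of the 5 genes, 4 were above and 1 below 0, at a median log2 fold change of 0.10. Their sum was 206.2 ± 26.0 CPM across NEO1+ and 201.2 ± 20.6 CPM across NEO1- libraries (SD, n = 5 each). Nob1 read 94.7, 73.7, 91.5, 100.3 and 63.9 CPM in NEO1+ libraries 1 to 5 and 120.0, 86.7, 93.8, 80.6 and 72.8 CPM in NEO1- libraries 1 to 5. The ranges overlapped in all but NEO1- library 1 and NEO1+ library 5, and the log2 fold change was -0.10 with an SE of 0.18. Bysl, Ltv1, Tsr1 and Rrp12, which assemble and export the particle, had log2 fold changes of 0.02, 0.10, 0.22 and 0.24, with SE from 0.25 to 0.49. Rrp12 was among the most variable, from 6.82 to 28.5 CPM across NEO1+ and from 6.30 to 27.5 CPM across NEO1- libraries.

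Of the 10 genes of large-subunit assembly, 5 were above and 5 below 0, with a median log2 fold change of -0.02. They summed to 643.3 ± 24.7 CPM across NEO1+ and 639.7 ± 87.1 CPM across NEO1- libraries (SD, n = 5 each). Wdr12, Pes1 and Bop1 encode the PeBoW complex, which is needed to process the large-subunit RNA. Wdr12 read 124.8, 93.6, 71.6, 72.4 and 82.8 CPM in NEO1+ libraries 1 to 5 and 51.1, 57.5, 50.1, 49.0 and 58.9 CPM in NEO1- libraries 1 to 5. Every NEO1+ library was above every NEO1- library, which held for no other gene of the 40 in this direction and for none in the other. Over all tested genes the share without overlap was 1.35% with NEO1+ above and 1.13% with NEO1+ below.

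The means of Wdr12 were 89.0 ± 21.9 CPM across NEO1+ and 53.3 ± 4.57 CPM across NEO1- libraries. The log2 fold change was 0.74 (SE 0.18, 95% interval 0.35 to 1.12, edgeR p 0.00109), and the adjusted p of 0.290 did not pass. It lay between 0.59, without NEO1+ library 1, and 0.81, without NEO1+ library 4, when any library was left out, with edgeR adjusted p from 0.252 to 0.667. DESeq2, run as an alternative, called it with an adjusted p of 0.0147, while calling 1.0% of the genes it gave an adjusted p. With the library number as a block it gave 0.00398, while calling 5.69%. In simulated counts, 67 of 221 DESeq2 calls without a block were false, against 12 of 142 edgeR calls. These counts were drawn with the dispersions that edgeR itself estimated, so they cannot rank the tools for Wdr12. The gene lies on chr1:60069785-60098645 (mm10), minus strand, and overlaps Carf on the opposite strand. Reads from where these genes overlap may not be separate in the counts. Carf had 4.54 to 8.60 CPM across NEO1+ and 0 to 16.6 CPM across NEO1- libraries. The part of such reads in the Wdr12 value was not tested.

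The partners of Wdr12 in the complex did not pass the test either. Pes1 read 44.9, 58.8, 56.8, 58.6 and 62.0 CPM in NEO1+ libraries 1 to 5 and 64.2, 49.2, 35.7, 77.8 and 40.0 CPM in NEO1- libraries 1 to 5, with the NEO1- values on both sides of the NEO1+ range. Its log2 fold change was 0.08 (95% interval -0.41 to 0.56). Bop1 had 57.5, 57.1, 57.3, 45.6 and 63.9 CPM in NEO1+ libraries 1 to 5 and 52.0, 61.6, 45.1, 54.0 and 33.1 CPM in NEO1- libraries 1 to 5. NEO1- libraries were on both sides of most NEO1+ values, and the log2 fold change was 0.20 (95% interval -0.22 to 0.62). Whether Wdr12 differed from its partners was not tested.

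Sbds, the factor mutated in Shwachman-Diamond syndrome that helps to release the last assembly factor from the large subunit, read 69.4, 91.8, 125.3, 90.9 and 112.1 CPM in NEO1+ libraries 1 to 5 and 154.0, 123.8, 125.3, 104.4 and 91.5 CPM in NEO1- libraries 1 to 5. NEO1- library 1 was the highest and NEO1+ library 1 the lowest, with overlap between, and the log2 fold change was -0.29 (SE 0.18, edgeR adjusted p 0.872). Nop16, a nucleolar assembly factor, had 73.9, 76.3, 70.1, 77.1 and 78.6 CPM in NEO1+ libraries 1 to 5 and 94.1, 88.6, 88.3, 81.3 and 77.9 CPM in NEO1- libraries 1 to 5. All NEO1- libraries but library 5 were above the NEO1+ range, by a small margin, and the log2 fold change was -0.19 (SE 0.13, edgeR adjusted p 0.890). The others were Nop2, an RNA methyltransferase, at 0.13 (SE 0.24), Rrp1b at 0.11 (SE 0.25), Gnl3, the GTPase nucleostemin, at -0.12 (SE 0.25), the helicase Ddx21 at -0.21 (SE 0.22) and Nip7 at -0.22 (SE 0.21). Without NEO1- library 1, Sbds was at -0.18 and Ddx21 at -0.08, and without NEO1- library 5, Nip7 was at -0.04 and Bop1 at 0.08.

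The library-to-library spread of these genes was lower in the NEO1+ group. Their median coefficient of variation was 16.5% across NEO1+ and 26.9% across NEO1- libraries, and it was larger in NEO1- for 32 of the 40 (80.0%). All tested genes showed the same, with medians of 27.3% and 41.5% and 78.2% larger in NEO1-. Among 5936 tested genes with a mean between 21.7 and 140.9 CPM, the 10th and 90th percentiles of the ribosome biogenesis genes, the medians were 20.2% and 30.5%, with 77.9% larger in NEO1-. NEO1- library 1 was the highest of its group for 17 of the 40 genes, where it was so for 23.3% of all tested genes. The number of genes with any count also differed, from 12800 to 13808 across NEO1+ and from 11477 to 13147 across NEO1- libraries. The part of library quality in the spread was not tested.

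**Figure D3:**
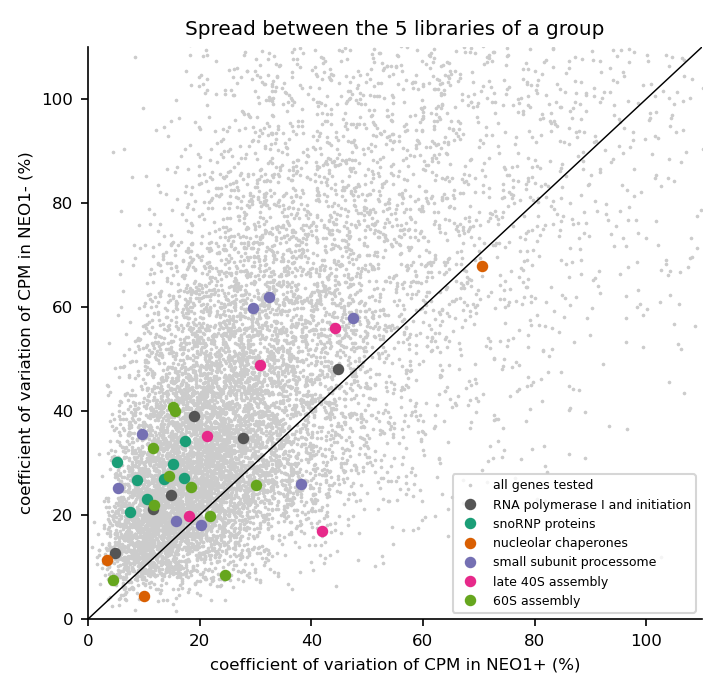
Coefficient of variation of CPM over 5 libraries in NEO1+ (horizontal, percent) against NEO1- (vertical, percent), with the ribosome biogenesis genes coloured by role and all tested genes in grey where both values are within the axes. Points above the diagonal vary more in NEO1-, as 32 of the 40 and 78.2% of all tested genes do.

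Rn45s, the gene of the ribosomal RNA precursor itself, was set beside the factors that make and process it. This RNA is not polyadenylated as a rule, so its reads enter a library primed on poly(A) tails by a side route and their share is not a direct measure of transcription by RNA polymerase I. Rn45s held 37.7%, 33.7%, 29.2%, 27.9% and 33.1% of the counts in NEO1+ libraries 1 to 5 and 42.3%, 42.4%, 40.5%, 30.7% and 36.0% in NEO1- libraries 1 to 5. NEO1- libraries 1 to 3 were above all NEO1+ libraries, and NEO1- libraries 4 and 5 were inside the NEO1+ range. The means were 32.3 ± 3.89% and 38.4 ± 5.01% (SD, n = 5 each), and the difference of -6.05 percentage points had a two-sided exact permutation p of 0.0794, where the smallest that 5 against 5 allows is 0.00794. Without NEO1- library 4 the difference was -7.97 points (exact permutation p 0.0238), and without NEO1+ library 4 it was -4.95 points (exact permutation p 0.151). In the edgeR fit its log2 fold change was -0.41 (SE 0.17, adjusted p 0.728). Genes with any count numbered 12800, 12941, 13808, 13142 and 13039 in NEO1+ libraries 1 to 5. In NEO1- libraries 1 to 5 they numbered 11477, 12053, 11593, 13147 and 12441. NEO1- libraries 1 to 3, the highest in Rn45s share, thus had the fewest genes with a count. The part of this in the Rn45s difference was not tested.

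The ribosome biogenesis genes did not follow that difference in their share of the counts left after Rn45s. They held 0.604%, 0.615%, 0.590%, 0.616% and 0.580% in NEO1+ libraries 1 to 5 and 0.681%, 0.598%, 0.575%, 0.579% and 0.600% in NEO1- libraries 1 to 5. Apart from NEO1- library 1 all values lay between 0.575% and 0.616%, and the means were 0.601 ± 0.0160% and 0.607 ± 0.0429% (SD, n = 5 each). NEO1- libraries 1 and 2 had nearly the same Rn45s share and differed in this share by more than any NEO1+ pair.

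**Figure D4:**
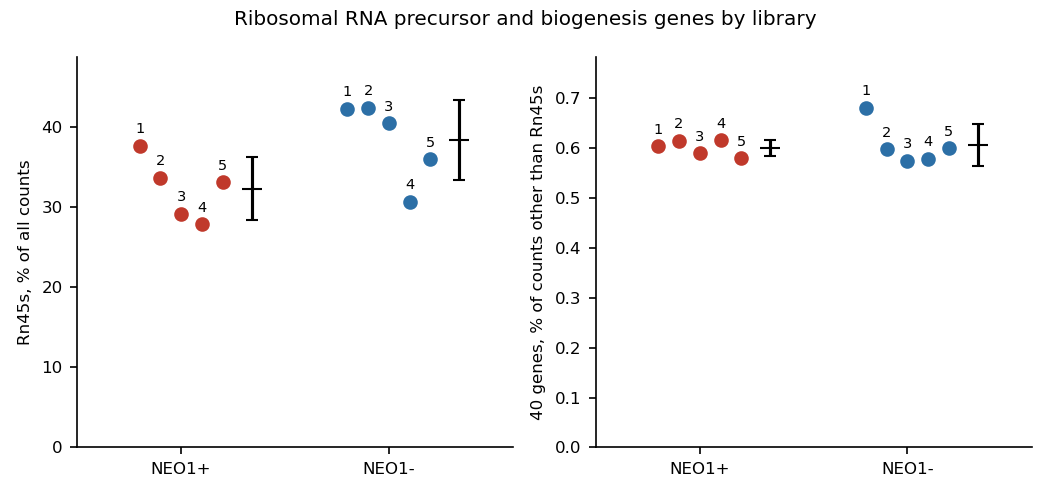
Left, percent of all counts held by Rn45s, and right, percent of the remaining counts held by the 40 ribosome biogenesis genes, by library (numbered points) in the NEO1+ and NEO1- groups, with the mean ± SD of 5 libraries beside them in black. Rn45s spans 27.9% to 42.4% over the 10 libraries, while on the right NEO1- library 1 stands apart at 0.681% and the other 9 lie between 0.575% and 0.616%.

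Other genes of the pathway, from 5 further lists (RNA polymerase I factors, small nucleolar ribonucleoproteins, small-subunit and large-subunit factors and the RNA exosome), gave 125 tested genes. None passed an adjusted p of 0.05 in edgeR. Of these, 44 were above and 81 below 0, at a median log2 fold change of -0.09, while 2 were higher and 5 lower at an unadjusted p under 0.05. The shares over all tested genes were 51.0% above 0, 3.11% higher and 3.49% lower. By list, 3 of 14 polymerase factors, 1 of 7 ribonucleoprotein genes and 19 of 44 small-subunit factors were above 0. So were 16 of 45 large-subunit factors and 5 of 15 exosome genes, and the list medians ran from -0.18 to -0.06. The polymerase list also holds Polr2e, Polr2f, Polr2h, Polr2k and Polr2l, subunits shared with other RNA polymerases. These ran from -0.86 for Polr2l to 0.09 for Polr2k, so the count is not particular to RNA polymerase I.

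Rsl1d1, a nucleolar protein, had the smallest p among those higher in NEO1+. It read 203.2, 203.7, 197.8, 227.1 and 228.5 CPM in NEO1+ libraries 1 to 5 and 148.1, 145.3, 139.4, 202.1 and 134.7 CPM in NEO1- libraries 1 to 5. NEO1- library 4 reached the NEO1+ range and the others lay below it (log2 fold change 0.46, SE 0.12, edgeR adjusted p 0.381, DESeq2 adjusted p 0.0346). Wdr74, which acts in large-subunit assembly, read 26.2, 28.0, 35.7, 35.4 and 30.1 CPM in NEO1+ and 60.5, 61.6, 52.9, 47.5 and 40.8 CPM in NEO1- libraries 1 to 5. Every NEO1+ library was below every NEO1- library, with a log2 fold change of -0.76 (edgeR adjusted p 0.368, SE 0.20, DESeq2 adjusted p 0.00903). Wdr12 and Wdr74, both WD-repeat proteins of large-subunit assembly, were thus at 0.74 and -0.76.

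The remaining genes named by the rule were Nop9, Taf1d and Fcf1. Taf1d, a subunit of the promoter selectivity factor of RNA polymerase I, had 11.8, 12.9, 13.0, 15.5 and 18.5 CPM in NEO1+ libraries 1 to 5 and 34.7, 30.8, 10.4, 30.0 and 35.3 CPM in NEO1- libraries 1 to 5. NEO1- library 3 was the lowest of the 10 and the other NEO1- libraries were above every NEO1+ library (log2 fold change -0.98, SE 0.35, edgeR adjusted p 0.586). Fcf1, a processome nuclease-domain protein, was at -0.54 (SE 0.19, edgeR adjusted p 0.586) and Nop9, a small-subunit factor, at 0.39 (SE 0.18, edgeR adjusted p 0.747).

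The regulators of the E-box had point estimates of opposite sign. Mycn read 446.6, 517.4, 521.5, 713.4 and 502.2 CPM in NEO1+ libraries 1 to 5 and 435.1, 381.3, 356.6, 500.6 and 345.5 CPM in NEO1- libraries 1 to 5. NEO1+ library 4 was the highest and NEO1- library 4 reached into the NEO1+ range (log2 fold change 0.42, SE 0.13, edgeR adjusted p 0.539). Without NEO1+ library 4 the log2 fold change of Mycn was 0.30. Myc had 206.7, 324.0, 251.2, 291.9 and 232.6 CPM in NEO1+ libraries 1 to 5 and 379.0, 289.2, 503.1, 387.8 and 266.1 CPM in NEO1- libraries 1 to 5. NEO1- libraries 1, 3 and 4 were above every NEO1+ library and the other two were inside the range, with a log2 fold change of -0.48 (edgeR adjusted p 0.586, SE 0.17). Of the 8 ribosome biogenesis genes with the E-box in the promoter window, 6 were above 0 at a median log2 fold change of 0.10. Of the 27 without it, 9 were above 0, at a median of -0.14. These are counts without a test.

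Markers of the cell cycle, which ribosome production often accompanies, had larger median fold changes than the ribosome biogenesis genes, although none of these lists held a gene past an adjusted p of 0.05 in edgeR. Of 44 S-phase genes, 42 were above 0 at a median log2 fold change of 0.74. They summed to 2798.9 ± 365.6 CPM across NEO1+ and 2003.0 ± 423.1 CPM across NEO1- libraries (SD, n = 5 each). Of 52 tested genes of G2 and mitosis, 48 were above 0 with a median of 1.18, with sums of 2527.0 ± 356.2 and 1695.1 ± 228.7 CPM. Genes of the ribosomal proteins, the substrates that the biogenesis factors assemble, lay on the other side, with 77 of 80 below 0, a median of -0.36 and 59 lower at an unadjusted p under 0.05, where the share over all tested genes was 3.49%. At the same threshold 12 of the S-phase genes and 18 of the genes of G2 and mitosis were higher, where that share was 3.11%. Their sums were 34170.0 ± 1244.3 CPM across NEO1+ and 42496.5 ± 5972.6 CPM across NEO1- libraries. The ribosome biogenesis genes, at a median of -0.07, lay between these lists, and differences between lists were not tested. NEO1+ library 4 had the highest S-phase sum, at 3442.2 CPM. Without it the medians were 0.62 for S phase, 1.24 for G2 and mitosis and -0.33 for ribosomal proteins, and the S-phase sum of the other 4 NEO1+ libraries was 2638.1 ± 76.1 CPM (SD). All 8 tested erythroid markers were also above 0, at a median of 1.53, and their part in these differences was not tested.

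**Figure D5:**
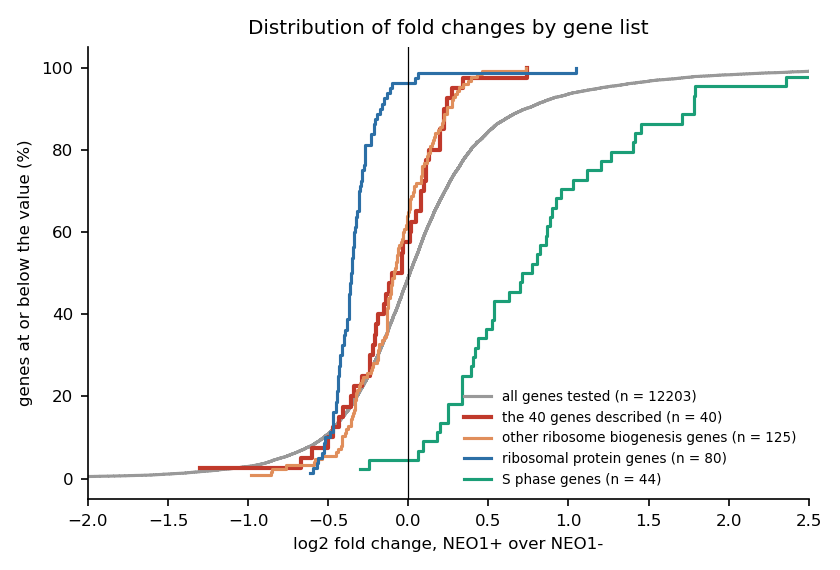
Percent of genes at or below a log2 fold change of NEO1+ over NEO1- (horizontal axis, drawn from -2 to 2.5), for the 40 ribosome biogenesis genes, 125 other ribosome biogenesis genes, ribosomal protein genes, S-phase genes and all tested genes. The curve of the 40 genes runs beside that of the 125, with medians of -0.07 and -0.09, between ribosomal proteins at -0.36 and S phase at 0.74.

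Levels between genes were compared per kilobase of exon (GENCODE M21, GRCm38), as CPM per kb. The median over both groups was 17.2 CPM per kb for the ribosome biogenesis genes and 5.50 for 12010 tested genes with a gene model. Npm1 was the highest at 262.3 CPM per kb, followed by Nop10 at 90.8, Ncl at 67.6, Nhp2 at 63.3, Nop56 at 56.2 and Sbds at 53.5. At the low end were Utp20 at 1.67, Heatr1 at 2.81, Polr1a at 3.14 and Npm3 at 3.66 CPM per kb. By this measure the small proteins of the box H/ACA particles had more transcript per kilobase than the large scaffolds of the processome. The length used was the union of all annotated exons of a gene, which can exceed that of its main transcript. It ran from 1.11 kb for Nop10 to 12.0 kb for Wdr12, so the order of genes depends in part on the annotation.

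Introns of ribosome biogenesis genes can hold the genes of the small nucleolar RNAs that act beside them. In the annotation 7 of the 40 (17.5%) held at least 1 such gene on their strand, against 1.84% of tested genes. Nop56 held 5, Nop58 4, Ncl, Wdr43 and Gnl3 3 each, Tsr1 2 and Dkc1 1. Of these 7 hosts, 4 were above 0, at a median log2 fold change of 0.05, while of the other 33 genes 13 were above 0, with a median of -0.10. In all, 11 of the 40 overlapped another tested gene on the opposite strand, Wdr12, Rrp9, Nhp2, Dkc1, Heatr1 and Bop1 among them. The counts of these 11 may hold reads of that neighbour.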

How the data were processed

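Bulk Smart-seq2 libraries (oligo-dT primed, 18 PCR cycles, 40 ng of cDNA into Nextera) of 5 NEO1+ and 5 NEO1- samples were analysed. Raw counts by gene symbol, as the authors deposited them, were used for all main results. The deposited log2 values equal log2 of the count over a library constant, plus 1, and served for 1 alternative. Per the submitters' processing notes, bcl2fastq 2.18, STAR 2.4, DESeq2 1.22.2 and mm10 were used. The counting tool, its annotation and its use of strand are not given in the sources used here. Genes were filtered with filterByExpr, scaled by TMM and tested by quasi-likelihood in edgeR 4.0.16 (R 4.3.3, robust), with Benjamini-Hochberg adjustment over 12203 genes at 0.05. Alternatives were median-ratio scaling, no filter, DESeq2 1.42.0, a replicate block, limma-trend (limma 3.58.1), leaving out Rn45s and leaving out each library. The Rn45s share was compared by exact permutation. Scripts were tested on simulated data with 200 of 12203 genes changed, all taken from the more abundant ones. The simulated counts were drawn with the dispersions that edgeR estimated from the real libraries. There edgeR recovered 39% of 2-fold and 91% of 4-fold changes, with 12 of its 142 calls false. DESeq2 recovered 56% and 98%, with 67 of its 221 calls false. Replicates differed beyond sampling noise (chi-square per degree of freedom at least 86.7). Whether pools shared animals is not stated, so p-values measure the spread between these samples. The labels give no batch or date.

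The genes and lists were chosen with earlier results of these data known. Values by library are given for the 6 genes of smallest p in each direction, any whose groups do not overlap, and Polr1a, Polr1b, Ubtf, Rrn3, Fbl, Dkc1, Ncl, Npm1, Heatr1, Nob1, Bop1, Pes1 and Sbds. From the further lists up to 3 a direction were named, plus Myc.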

Additional observations from a re-analysis of the deposited data

Results flagged for a closer look

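Within a group of 5 libraries, 9 of 102 sets of values had a highest or lowest library set apart from the rest by more than Dixon's 95% limit of 0.710 for gap over range, where chance gives 5.1. In NEO1- library 1, Nop56 stood at 339.1 CPM against 199.8 to 237.3 CPM in the other four, and the 40 ribosome biogenesis genes together held 0.681% of counts other than Rn45s against 0.575% to 0.600%. In NEO1- library 2, Npm1 stood at 845.1 CPM against 651.0 to 691.2 CPM. NEO1- library 3 had Taf1d at 10.4 CPM against 30.0 to 35.3 CPM, and NEO1- library 4 had Rsl1d1 at 202.1 CPM against 134.7 to 148.1 CPM. In NEO1+ library 3, Rrp9 stood at 40.6 CPM against 35.7 to 37.0 CPM and Ltv1 at 73.9 CPM against 46.3 to 52.3 CPM. NEO1+ library 4 had Mycn at 713.4 CPM against 446.6 to 521.5 CPM, and NEO1+ library 5 had Tsr1 at 44.5 CPM against 22.6 to 28.0 CPM.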

How the results depend on the processing

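Over all genes, edgeR called 0 at an adjusted p of 0.05 (806 at an unadjusted p under 0.05), 2 without a filter on low counts and 0 to 1 when a library was left out (1 without NEO1- library 1), limma-trend called 1 and DESeq2 146. Labels give both groups the numbers 1 to 5 without saying that these pair the libraries. Deviations of same-numbered libraries correlated at 0.004 to 0.036 over all tested genes (-0.07 to 0.174 over the 40). Pairs of unlike number had a mean of -0.004 (-0.011 over the 40). Correlations this small cannot settle whether the numbers pair libraries, so the main results use no pairing and the block is an alternative. With the number as a replicate block edgeR still called 0 and DESeq2 742. Among the 40 genes DESeq2 called 1 (Wdr12) with and without the replicate block, and edgeR and limma-trend called 0. The count higher at an unadjusted p under 0.05 was 2 in DESeq2 with the block and 1 to 2 leaving out a library. The count lower was 1 without a filter, 0 in edgeR with the block, 1 in DESeq2 with the block, 0 in limma-trend and 0 to 2 leaving out a library. The median over the 40 lay between -0.14 and 0.02 over all alternatives, and the median of all genes moved from 0.01 to 0.112 in limma-trend, 0.099 in edgeR with the block and 0.094 in DESeq2 with the block. The log2 fold change of Rn45s was -0.40 in DESeq2 with the block (adjusted p 0.0245), and the difference in its share ran from -7.97 to -4.95 points leaving out a library, with -6.05 under the block (lower in NEO1+ in all 5 pairs, exact sign-flip p 0.0625, the smallest that 5 pairs allow). Of 799 values for 47 genes, 753 kept direction and side of the threshold, 7 newly passed it and 39 in 15 genes changed sign. The 7 were Wdr12, Rsl1d1 and Wdr74 in DESeq2 with and without the block, and Mycn with it (adjusted p 0.000629). Under edgeR with the block, DESeq2 with the block and limma-trend, Polr1b was at 0.03, 0.02 and 0.02, Gar1 at 0.02, 0.01 and 0.01 and Bysl at -0.08, -0.09 and -0.09, while Heatr1 was at 0.08 in limma-trend. Leaving out a library gave ranges across 0 for Polr1b (-0.16 to 0.16), Polr1c (-0.08 to 0.08), Dkc1 (-0.23 to 0.03), Gar1 (-0.18 to 0.16), Nolc1 (-0.04 to 0.23), Npm1 (-0.06 to 0.04), Heatr1 (-0.52 to 0.05), Nob1 (-0.17 to 0.02), Bysl (-0.15 to 0.18), Ltv1 (-0.05 to 0.30), Tsr1 (-0.01 to 0.49), Pes1 (-0.04 to 0.25), Nop2 (-0.06 to 0.25), Rrp1b (-0.01 to 0.38) and Gnl3 (-0.26 to 0.15). The cause of these changes was not tested.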
